A study of Mus musculus with 8 samples.

Results

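The genes described here encode receptors, a ligand and peptidases of the bradykinin, angiotensin and endothelin systems, which control vessel tone and permeability in the lung. The set named 9 genes, Bdkrb2, Bdkrb1, Ace, Agtr1a, Agtr2, Ednra, Edn1, Ece1 and Mme, and each was looked up as an array probe set annotated with that gene symbol alone. Such a probe set was found for 8 of the 9 genes, out of 19937 genes in all. The expression of Ednra was not analysed here. Probe sets were to be chosen by their mean level over the 8 arrays, the highest being taken, but each of the 8 genes had exactly 1, so this step selected nothing. The gene names were picked with earlier results of these data known, and the tests below therefore describe them and are no independent support for the choice.

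Whole lungs were taken from untreated mice at postnatal day 21. One group of 4 mice carried a stabilized beta-catenin, a form of this Wnt effector and junction protein that escapes normal degradation, and the other group of 4 mice was a beta-catenin knockout. Which exons were altered, by which Cre driver and in which cells is not stated in the labels, and unmodified lungs were not analysed here, so a difference does not say which group departed from normal. Total RNA of each mouse was hybridised to 1 Affymetrix array, and the deposited values are log2 expression, on which a difference of 1 is a 2-fold change. Wherever 4 values of a group are listed, they are log2 expression in replicates 1, 2, 3 and 4, in that order.

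Bradykinin is a short peptide released from kininogens. It acts on the B2 receptor, which is present in healthy tissue, while the B1 receptor is induced by injury and binds kinins that have lost their terminal arginine. Angiotensin-converting enzyme, abundant on lung capillary endothelium, makes angiotensin II from angiotensin I and also degrades bradykinin. Endothelin-1 is a vasoconstrictor cut from its precursor by endothelin-converting enzyme, and neprilysin, a related membrane metallopeptidase encoded by Mme, degrades kinins and several other peptides.

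The recorded sex did not match the arrays in 4 of 8 cases. All mice are labelled male, but Xist, the transcript of the inactive X chromosome, lay between 10.36 and 10.59 in stabilized replicates 1 and 4 and knockout replicates 1 and 3, and between 4.18 and 4.62 in the remaining arrays. On the Y chromosome, Uty, Kdm5d and Eif2s3y read 3.08 to 4.00 where Xist was high and 6.71 to 8.35 elsewhere. Both groups had 2 arrays with each pattern, and values within each pattern are given below. A wrong record of sex and an exchange of samples cannot be told apart here, and the group of each array rests on its title. Array medians lay between 5.97 and 6.03, and correlations between arrays over all genes were 0.993 to 0.996 within a group and 0.987 to 0.993 between groups. Markers of lung epithelium were present in both groups, with the mean log2 level of 10 alveolar type 2 cell markers at 11.20 to 11.37 in stabilized and 10.96 to 11.07 in knockout arrays.

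Promoter sequence is shown for Bdkrb2 and Mme, the genes that differed between the groups, and for the 1 member window with a full TCF/LEF match, because these factors recruit beta-catenin to DNA. Each window runs from 250 bases before to 50 bases after an annotated start, 5′ to 3′ on the gene's strand, from RefSeq on GRCm38.p6. Capitals mark the letters CTTTG or, on the opposite strand, CAAAG, the core of the TCF/LEF motif. The Bdkrb2 window is chr12:105562922-105563221, plus strand.
Bdkrb2: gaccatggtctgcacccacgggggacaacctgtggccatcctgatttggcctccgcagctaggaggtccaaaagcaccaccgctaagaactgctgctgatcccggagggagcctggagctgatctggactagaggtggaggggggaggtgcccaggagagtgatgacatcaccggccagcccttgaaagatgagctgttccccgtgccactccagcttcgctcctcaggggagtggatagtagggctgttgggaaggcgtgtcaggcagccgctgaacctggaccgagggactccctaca
The Mme windows shown are chr3:63294961-63295260 and chr3:63295622-63295921, plus strand.
Mme upstream start: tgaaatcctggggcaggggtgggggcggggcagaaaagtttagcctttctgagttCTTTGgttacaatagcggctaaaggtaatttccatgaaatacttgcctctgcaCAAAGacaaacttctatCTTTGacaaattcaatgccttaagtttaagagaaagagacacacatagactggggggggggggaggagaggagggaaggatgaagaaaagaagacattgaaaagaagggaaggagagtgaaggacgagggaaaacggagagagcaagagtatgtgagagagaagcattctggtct
Mme next start: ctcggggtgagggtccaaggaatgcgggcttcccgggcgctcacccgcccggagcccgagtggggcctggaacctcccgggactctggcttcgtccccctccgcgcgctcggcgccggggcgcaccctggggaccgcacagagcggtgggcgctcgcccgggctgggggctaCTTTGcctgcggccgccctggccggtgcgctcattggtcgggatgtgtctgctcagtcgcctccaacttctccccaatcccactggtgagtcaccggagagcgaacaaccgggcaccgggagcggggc
The Ece1 window is chr4:137920543-137920842, plus strand.
Ece1: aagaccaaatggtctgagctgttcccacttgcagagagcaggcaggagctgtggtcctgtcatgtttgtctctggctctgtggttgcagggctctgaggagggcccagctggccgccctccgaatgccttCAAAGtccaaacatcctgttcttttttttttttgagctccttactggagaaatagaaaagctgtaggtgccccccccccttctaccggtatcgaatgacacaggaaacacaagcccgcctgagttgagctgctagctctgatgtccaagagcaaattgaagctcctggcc

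The Bdkrb2 window held 0 copies of the core, the upstream Mme window held 3 and the next Mme window held 1. A further Mme window, which overlaps the second and is not shown, held 0. Of 32851 promoter windows of the same length, 53.9% held the core on either strand. The longer letters CTTTGAA or CTTTGAT, each of which contains the core, were searched on both strands and occurred in 8.65% of all windows. Among 13 windows of 7 of the 9 named genes, Ednra included, 1 held them, a window of Ece1 in which CTTTGAA lies on the opposite strand with its leftmost base 122 bases before the start. Ece1 did not pass the test between the groups. A match here is a run of letters and not a measured binding site, and binding outside these windows was not examined.

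Bdkrb2, which encodes the bradykinin B2 receptor, was higher in stabilized lungs. The stabilized arrays read 7.54, 7.17, 7.27 and 7.50, against 5.96, 6.53, 6.09 and 6.41 in the knockout arrays. Every stabilized array lay above every knockout array, with a gap of 0.64 between the closest pair. The mean was 7.37 ± 0.18 in stabilized lungs and 6.25 ± 0.27 in knockout lungs (SD, n = 4 each), a 2.18-fold difference. On the log2 scale the difference was 1.12 ± 0.13 (SE, 95% interval 0.85 to 1.39, limma adjusted p = 1.4e-04 over all genes). Its p-value ranked 149 among 19937 genes.

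Within each Xist pattern the Bdkrb2 difference had the same direction and a different value. Among arrays with high Xist the difference was 1.49 ± 0.10 (SE, limma adjusted p = 7.1e-04), with stabilized arrays at 7.54 and 7.50 and knockout arrays at 5.96 and 6.09. Among arrays with the Y-linked pattern it was 0.75 ± 0.11 (SE, limma adjusted p = 0.011), with stabilized arrays at 7.17 and 7.27 and knockout arrays at 6.53 and 6.41. The high-Xist arrays thus held the highest stabilized and the lowest knockout values. The difference between these effects was 0.74 ± 0.14 (SE), which did not pass the test over all genes (limma interaction, adjusted p = 0.96). In that test 0 of 19937 genes passed, and 841 (4.22%) had an unadjusted p under 0.05.

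Bdkrb1, which encodes the injury-induced B1 receptor, is the protein-coding gene next to Bdkrb2 on chromosome 12 in the RefSeq gene table. The stabilized arrays read 6.17, 6.20, 6.32 and 6.12, against 6.20, 6.53, 6.40 and 6.41 in the knockout arrays. Most stabilized arrays lay below most knockout arrays, but the groups overlapped. The difference was -0.18 ± 0.08 (SE, 95% interval -0.35 to -0.01, limma adjusted p = 0.17), so the gene did not pass the test. The next genes beyond it, Atg2b and Gskip, had differences of 0.10 ± 0.08 and 0.17 ± 0.09 (SE, limma adjusted p = 0.48 and 0.28). On the other side the nearest gene, D430019H16Rik, was not analysed here, and the next, Tcl1, had a difference of -0.03 ± 0.08 (SE, limma adjusted p = 0.85).

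**Figure D1:**
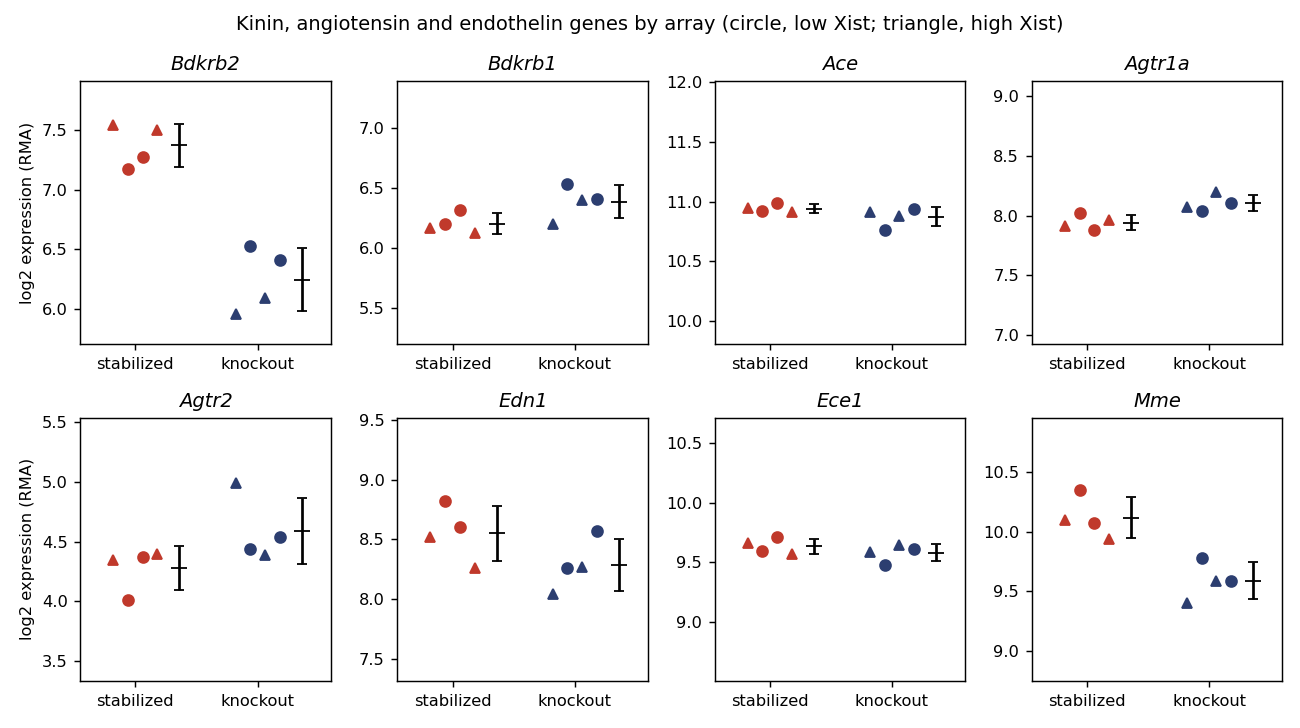
Log2 expression (RMA) of the 8 measured genes in each array, stabilized on the left and knockout on the right of each panel, with the mean and SD of 4 arrays as a bar beside the points. Circles are arrays with low Xist and triangles arrays with high Xist. In Bdkrb2 and Mme every stabilized array lies above every knockout array, and in Agtr1a every one lies below.

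Mme, which encodes neprilysin, was also higher in stabilized lungs. The stabilized arrays read 10.10, 10.35, 10.07 and 9.94, against 9.40, 9.78, 9.59 and 9.59 in the knockout arrays. The groups did not overlap, and the lowest stabilized array stood 0.16 above the highest knockout array. The means were 10.11 ± 0.17 in stabilized lungs and 9.59 ± 0.16 in knockout lungs (SD, n = 4 each), a 1.44-fold difference. The log2 difference was 0.52 ± 0.10 (SE, 95% interval 0.31 to 0.73, limma adjusted p = 0.0051 over all genes). It was 0.53 among arrays with high Xist and 0.52 among the others, with limma adjusted p = 0.051 and 0.10 in these smaller fits of 2 against 2 arrays. The call thus did not hold within either pattern alone, while the size of the difference was nearly the same. Of the protein-coding genes within 3 places of Mme on chromosome 3, Plch1, named after its values were seen, fell by 0.29 ± 0.07 (SE, limma adjusted p = 0.025), and the other 4 with a value did not pass.

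Ace, the converting enzyme, read 10.95, 10.92, 10.99 and 10.91 in the stabilized arrays, against 10.91, 10.76, 10.88 and 10.94 in the knockout arrays. The groups overlapped, and the difference was 0.07 ± 0.06 (SE, 95% interval -0.07 to 0.20, limma adjusted p = 0.55). The interval leaves room for a difference of up to 0.20 on the log2 scale. Mme thus passed the test and Ace did not, and whether their differences are unequal was not tested.

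The angiotensin receptors were both lower on average in stabilized lungs, and neither passed the test. Agtr1a encodes the main receptor through which angiotensin II constricts vessels. The stabilized arrays read 7.91, 8.02, 7.88 and 7.96, against 8.07, 8.04, 8.20 and 8.11 in the knockout arrays. The groups did not overlap, although the gap was only 0.02. The difference was -0.16 ± 0.06 (SE, 95% interval -0.30 to -0.03, limma adjusted p = 0.13).

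Agtr2, an X-linked gene, encodes the second angiotensin II receptor, which opposes several actions of the first. The stabilized arrays read 4.35, 4.01, 4.37 and 4.40, against 4.99, 4.44, 4.39 and 4.54 in the knockout arrays. Knockout replicate 1 was the highest and stabilized replicate 2 the lowest, and the groups overlapped slightly. The difference was -0.31 ± 0.13 (SE, 95% interval -0.58 to -0.03, limma adjusted p = 0.15). Its mean over the 8 arrays, 4.44, stood at percentile 18 of all genes, where background signal compresses a change. Stabilized replicate 2, at 4.01, was close to the 3.08 to 4.00 of the Y-linked genes in arrays with high Xist. Whether Agtr2 was expressed above background was not tested. The difference was -0.32 among arrays with high Xist and -0.30 among the others, and it was -0.18 without knockout replicate 1 (limma adjusted p = 0.31).

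Edn1, which encodes endothelin-1, read 8.52, 8.82, 8.60 and 8.26 in the stabilized arrays, against 8.04, 8.26, 8.27 and 8.57 in the knockout arrays. The values were widely spread within each group and overlapped. The difference was 0.27 ± 0.12 (SE, 95% interval -0.0016 to 0.53, limma adjusted p = 0.21). With 1 array left out it ranged from 0.18, without stabilized replicate 2, to 0.36, without stabilized replicate 4. It passed in none of these fits. In Mme and Edn1 alike, replicate 2 was the highest and replicate 4 the lowest of the stabilized arrays. Knockout replicate 1 was the lowest knockout array in both genes. The highest knockout array differed, replicate 2 for Mme (9.78) and replicate 4 for Edn1 (8.57). These positions were picked out after the values were seen.

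Ece1, which encodes endothelin-converting enzyme, read 9.66, 9.60, 9.71 and 9.57 in the stabilized arrays, against 9.59, 9.48, 9.65 and 9.61 in the knockout arrays. The groups overlapped, and the difference was 0.05 ± 0.06 (SE, 95% interval -0.09 to 0.19, limma adjusted p = 0.68).

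Among the 8 measured genes, 2 rose in stabilized lungs, none fell and 6 missed the threshold. Over all genes 9.62% passed, 4.65% higher and 4.96% lower in stabilized lungs. The groups did not overlap in 3 of the 8 genes, beside 16.9% of all genes. The median difference was 0.06 over the 8 genes and -0.01 over all genes. With so few genes, chosen with results known, nothing is read from these shares.

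**Figure D2:**
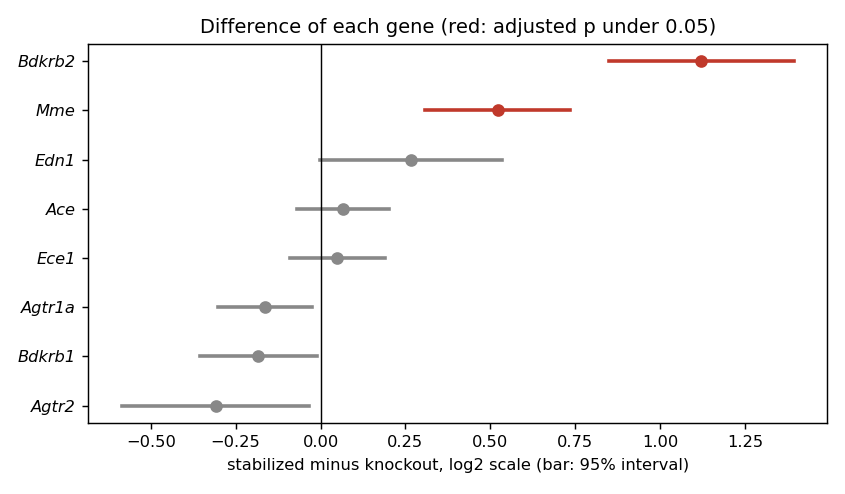
Difference in log2 expression, stabilized minus knockout, for each of the 8 genes, with the 95% interval of the limma fit. Red marks an adjusted p under 0.05 over all genes. Bdkrb2 (1.12) and Mme (0.52) stand to the right of 0, and the other intervals lie within 0.58 of 0 on either side.

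For the genes that rose, the 3 other genes with the most similar profile were found as those with the smallest root mean square difference from it over the 8 arrays, after each gene's mean was subtracted. For Bdkrb2 the closest was Slc1a4, a neutral amino acid transporter, at 0.077 on the log2 scale, where Bdkrb2 itself varied about its mean by 0.59. Slc1a4 lay at 8.36 ± 0.18 in stabilized lungs and 7.25 ± 0.22 in knockout lungs (SD, n = 4 each). The next were Ctse, the aspartic protease cathepsin E, at 0.198, and Grin2c, a glutamate receptor subunit, at 0.201. For Mme, which varied about its mean by 0.30, they were Dynll1, a dynein light chain, at 0.075, Brinp1 at 0.075 and Vipr2, a receptor for vasoactive intestinal peptide, at 0.076. A gene with a similar difference between the groups is close by this measure whatever its function.

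Other genes of these systems were taken from 5 lists, with 84 of 98 entries measured. Of these 84, 6 rose and 1 fell, and the remaining 77 missed the threshold over all genes. Of all genes 4.65% rose and 4.96% fell, 9.62% in all, so 7 of 84 is near the share over all genes, and nothing is read from the counts of the single lists. Of 9 other kinin system genes, 1 rose and 0 fell, with a median difference of 0.09. The gene that rose was Cpm, which encodes carboxypeptidase M, the membrane enzyme that trims kinins to B1 receptor ligands. The stabilized arrays read 10.23, 10.49, 10.45 and 10.23, against 9.92, 10.08, 10.11 and 9.83 in the knockout arrays. The groups did not overlap, and the difference was 0.36 ± 0.09 (SE, limma adjusted p = 0.020). The call was lost without stabilized replicate 2 or 3 or knockout replicate 1 or 4, at adjusted p of up to 0.055.

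Of 14 other renin-angiotensin genes, 1 rose and 0 fell, with a median of 0.05. Enpep, which encodes aminopeptidase A and converts angiotensin II to angiotensin III, read 10.18, 10.26, 10.05 and 10.04 in the stabilized arrays, against 9.77, 9.75, 9.66 and 9.84 in the knockout arrays. The groups did not overlap, and the difference was 0.38 ± 0.07 (SE, limma adjusted p = 0.0052). It passed in each of the 8 fits that left out 1 array, at adjusted p of up to 0.022.

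Of 6 other endothelin system genes, 1 rose and 0 fell, with a median of 0.03. Edn3, a ligand of the endothelin B receptor, read 7.27, 7.25, 7.29 and 7.19 in the stabilized arrays, against 7.05, 6.97, 7.13 and 6.96 in the knockout arrays. The difference was 0.22 ± 0.06 (SE, limma adjusted p = 0.0498), and 7 of the 8 fits without 1 array lost the call, the exception being that without knockout replicate 3. The endothelin B receptor gene Ednrb, singled out after its values were seen, lay at 8.77 ± 0.10 in stabilized lungs and 8.73 ± 0.05 in knockout lungs (SD, n = 4 each), with a difference of 0.04 ± 0.07 (SE, limma adjusted p = 0.74). Its sign turned after a repeated quantile normalization, to -0.01.

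Of 25 genes that couple these receptors to their effects, 3 rose and 0 fell, with a median of 0.04. Rgs5, a regulator of G protein signalling that marks pericytes, had the largest difference of the 7 listed genes that passed. It read 7.73, 7.87, 7.63 and 7.66 in the stabilized arrays, against 5.83, 5.97, 6.32 and 6.16 in the knockout arrays, a 3.14-fold difference (log2 difference 1.65 ± 0.10, SE, limma adjusted p = 2.0e-06). Grk5, a kinase that desensitizes G protein coupled receptors, rose by 0.32 ± 0.08 (SE, limma adjusted p = 0.028). Its call was lost without stabilized replicate 1 or 2 or knockout replicate 3. Ptgs2, the inducible cyclooxygenase, lay at 7.72 ± 0.11 in stabilized lungs and 7.21 ± 0.36 in knockout lungs (SD, n = 4 each; limma adjusted p = 0.042). Its call was lost without any 1 stabilized replicate or without knockout replicate 3, at adjusted p of up to 0.12. Knockout replicate 4 was the lowest array at 6.68, against 7.30 to 7.44 in the other knockout arrays, and without it the difference was 0.33, against 0.51 with all arrays.

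Of 30 receptors and peptides of other vasoactive systems, 0 rose and 1 fell, with a median of -0.03. Vipr1, a receptor for vasoactive intestinal peptide, lay at 5.72 ± 0.15 in stabilized lungs and 6.05 ± 0.06 in knockout lungs (SD, n = 4 each). It fell by 0.32 ± 0.08 on the log2 scale (SE, limma adjusted p = 0.020), and the call was lost without stabilized replicate 1 or 3 or knockout replicate 2 or 3. With the mean of its probe sets in place of the brightest, the difference was -0.15 and did not pass (limma adjusted p = 0.19). Vipr2, the other receptor of this peptide, is not on the list and was named above for its likeness to Mme. It was higher by 0.62 ± 0.08 (SE, limma adjusted p = 6.1e-04). That likeness included the difference between the groups, so the direction followed from the choice and the p-value is no separate support. Within either Xist pattern alone, Rgs5 passed and the other 6 of these 7 list genes did not. Their differences among arrays with high Xist and among the others were 0.40 and 0.36 for Enpep, 0.37 and 0.28 for Grk5, and -0.24 and -0.41 for Vipr1. They were 0.22 and 0.51 for Cpm, 0.14 and 0.30 for Edn3, and 0.28 and 0.74 for Ptgs2. The counts over the lists depended on the scaling. After each array was centred on its median, 13 list genes rose and 1 fell, and the share of higher genes among all called genes was 64.4%, against 48.4% without centring.

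**Figure D3:**
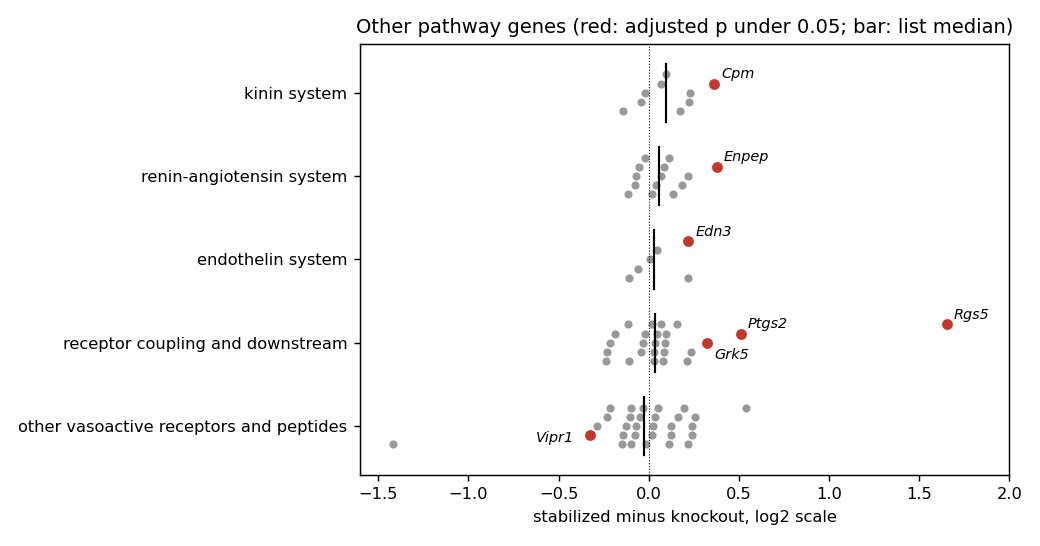
Differences in log2 expression, stabilized minus knockout, of the 84 measured genes in 5 lists, 1 point per gene, with the median of each list as a vertical bar. Red marks the 7 genes with an adjusted p under 0.05, and Rgs5 lies farthest to the right at 1.65.

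In whole lung, fewer cells of a type and less RNA per cell cannot be told apart, and marker lists of other cell types moved with the groups. Beside the counts below, 4.65% of all genes rose and 4.96% fell. Of 12 fibroblast markers 5 rose and 0 fell, with a mean log2 level of 10.45 to 10.58 in stabilized and 10.18 to 10.30 in knockout arrays. Of 8 neutrophil and monocyte markers 5 rose and 0 fell, at 6.86 to 7.04 in stabilized and 6.27 to 6.42 in knockout arrays. The 5 were S100a8, S100a9, Csf3r, Cxcr2 and Mmp8. Retnlg, Lcn2 and the monocyte marker Ccr2 did not pass, and Ly6c2 was not measured. The Ccr2 difference was 0.26 ± 0.16 (SE, limma adjusted p = 0.34). Of 7 mesothelial markers 3 rose and 0 fell, at 8.35 to 8.39 in stabilized and 8.01 to 8.09 in knockout arrays, and of 10 alveolar type 2 markers 7 rose and 0 fell. The part of these cell types in the Bdkrb2 and Mme differences was not tested.

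Over all genes 9.62% passed the test, and nothing is read from the counts in the vascular lists. Of 14 endothelial markers 1 rose and 0 fell, with a mean level of 10.06 to 10.08 in stabilized and 9.93 to 10.02 in knockout arrays. These endothelial means did not overlap between the groups, and 4 of the 14 differences were below 0. Of 10 smooth muscle markers 0 rose and 0 fell, at 7.59 to 7.91 in stabilized and 7.60 to 7.75 in knockout arrays. Of 10 pericyte markers 1 rose, which was Rgs5. The other 9 had differences of -0.13 to 0.27 with 0 called, and their mean level was 8.17 to 8.23 in stabilized and 8.10 to 8.23 in knockout arrays. With Rgs5 included, the list mean was 8.12 to 8.20 in stabilized and 7.87 to 8.04 in knockout arrays. Of 10 alveolar type 1 markers 0 rose and 0 fell, at 10.601 to 10.68 in stabilized and 10.51 to 10.599 in knockout arrays. These means did not overlap either, by a very small margin, and 1 of the 10 differences was below 0.

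Other lists were lower in stabilized lungs, in the direction opposite to Bdkrb2 and Mme, where 4.96% of all genes fell. All 9 club cell markers fell, at 9.22 to 9.44 in stabilized and 10.22 to 10.43 in knockout arrays. Of 10 ciliated cell markers 8 fell and 0 rose, at 5.64 to 5.91 in stabilized and 6.49 to 6.63 in knockout arrays. Of 10 lymphocyte markers 9 fell and 0 rose, at 5.86 to 6.03 in stabilized and 6.83 to 7.45 in knockout arrays. Of 13 cardiac and skeletal muscle markers 5 fell and 0 rose, at 7.19 to 7.34 in stabilized and 7.50 to 7.97 in knockout arrays.

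**Figure D4:**
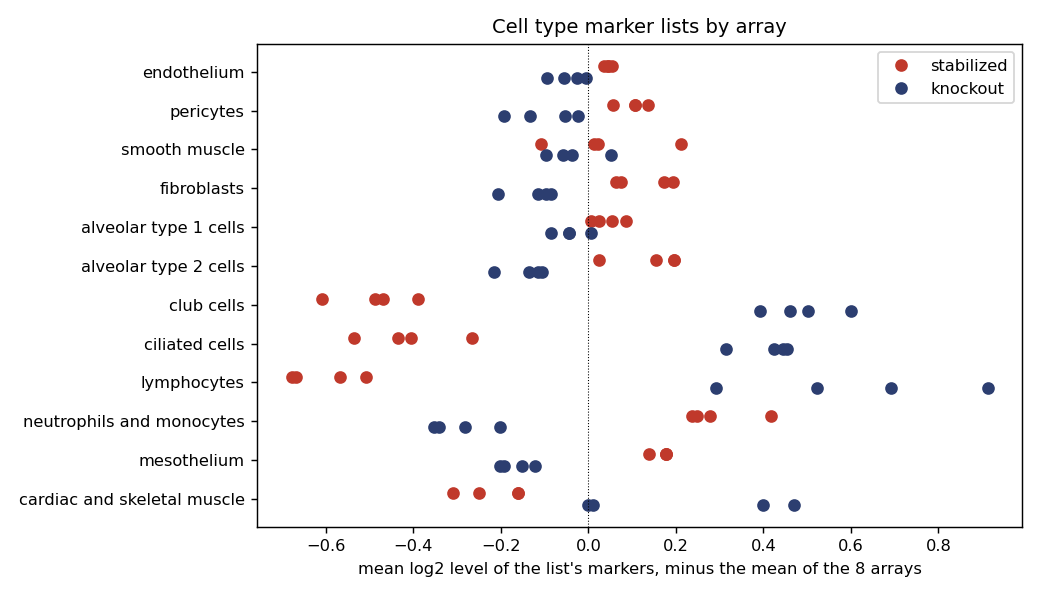
Mean log2 level of each cell type marker list in each array, minus the mean of the 8 arrays, with stabilized arrays in red above knockout arrays in blue. Club, ciliated and lymphocyte lists lie left of 0 in all stabilized arrays, fibroblast, neutrophil and mesothelial lists lie right of it, and smooth muscle overlaps. The pericyte list is drawn with Rgs5 included.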

How the data were processed

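Whole-lung RNA of 8 mice, 4 per group, was measured on 1 array each. The authors deposited log2 expression values for 34760 probe sets, made with RMA and the affy package per the submitters' processing notes, with no versions. RMA corrects background, normalizes quantiles across arrays and summarises probes, which hides global shifts and compresses changes of dim genes. Arrays carry no read depth, so their number limits the precision. Groups and replicate numbers came from the sample titles.

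Probe sets with 1 gene symbol in the platform annotation (21640) gave 19937 genes, each represented by the probe set of highest mean level. Stabilized minus knockout was fitted over all genes with limma 3.58.1 in R 4.3.3 (lmFit, eBayes, no covariate, no filter), with calls at a Benjamini-Hochberg adjusted p under 0.05. Members and lists were chosen with earlier results of these data known. Named were all measured members, up to 4 called genes with the smallest p per pathway list, and 3 genes most similar to each called member. The interaction with the Xist pattern was added after the values were seen. Only the fit of stabilized minus knockout was tested on simulated data. Alternatives covered normalization, dim genes, priors, array weights, probe sets, Xist, pairing and left-out arrays.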

Additional observations from a re-analysis of the deposited data

Results flagged for a closer look

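One member's group held an array far from the others. In stabilized lungs Agtr2 lay at 4.35, 4.01, 4.37 and 4.40 in replicates 1 to 4. The gap between replicate 2, the lowest, and the next array was 0.867 of the group's range. That exceeded the critical value of Dixon's test for 4 samples at the 95% level. Chance flags about 1 in 20 such groups, and 16 were examined here. Without stabilized replicate 2 the difference of Agtr2 was -0.22 (limma adjusted p = 0.35) on the log2 scale, without knockout replicate 1 it was -0.18 (limma adjusted p = 0.31), and in the 18 alternative fits that held the gene it did not pass, at adjusted p of 0.095 to 0.43.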

How the results depend on the processing

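Among 19 alternative fits, 8 of which left out 1 array, Bdkrb2 passed in all, at a log2 difference of 0.75 to 1.49 and adjusted p of 4.5e-05 to 0.011. Mme passed in 17 and did not in the fits on either Xist pattern alone, with differences of 0.52 (arrays with the Y-linked pattern, adjusted p = 0.10) and 0.53 (arrays with the Xist pattern, adjusted p = 0.051), so that 1 member was called higher in each. These fits hold 2 arrays per group. With 1 array left out, Bdkrb2 differed by 1.03 to 1.21 and Mme by 0.44 to 0.58, and 2 members were called higher throughout. No other measured member passed in any alternative run, and of these Ece1 changed sign, to -0.0078 in the arrays with the Xist pattern. Agtr2 and Bdkrb1 had no value where dim genes were left out.

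Over all genes 1917 were called, 354 in the arrays with the Y-linked pattern alone and 670 in those with the Xist pattern alone. With 1 array left out 1216 to 1839 were called, with 1216 without stabilized replicate 1 and 1235 without knockout replicate 3. List genes called higher numbered 6, against 13 after median centring, 3 after repeated quantile normalization, 10 without dim genes, 10 with a trended robust prior, 11 with array weights, 2 over all probe sets and 1 in either Xist pattern alone. With 1 array left out there were 2 to 6, with 3 without stabilized replicate 1 and 2 without stabilized replicate 2. List genes called lower numbered 1, against 0 without dim genes, 0 over all probe sets, 0 with mean probe sets, 2 with Xist as a covariate and 0 in the arrays with the Y-linked pattern. With 1 array left out there were 0 to 3, with 0 without stabilized replicate 1 or 3 or knockout replicate 3 and 3 without knockout replicate 4. Of 19 alternatives, Rgs5 passed in 19, Enpep in 17, Cpm in 12, Grk5 in 12, Ptgs2 in 9 and Edn3 in 6, and Vipr1 passed in 10 of 18. Ednrb changed sign after repeated quantile normalization, to -0.0131. Fewer arrays or features tested are part of some settings, and otherwise the cause was not tested.

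With the replicate number as a block, 1828 genes passed, and Bdkrb2 (adjusted p = 8.0e-04) and Mme (adjusted p = 0.0031) kept their calls. Of the other genes named, Edn3 lost its call under the block (adjusted p = 0.065). Deviations of same-numbered arrays from their group means correlated at -0.01 to 0.08 across genes. The values were 0.08 and 0.07 for numbers 1 and 2, whose arrays shared the Xist pattern, and -0.01 and 0.02 for 3 and 4. Arrays with different numbers were not compared, so these values do not decide whether the numbers mark pairs.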
